A study of Mus musculus with 6 samples.

Results

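The tumour necrosis factor (TNF) superfamily was followed at the level of chromatin accessibility in granulocyte-monocyte progenitors, the bone marrow cells that give rise to neutrophils and monocytes. Its members here were the 41 RefSeq protein-coding genes of mm10 whose symbols start with Tnfsf or Tnfrsf, together with Tnf, Lta, Ltb, Ltbr, Fas, Fasl, Cd27, Cd70 and Eda2r, out of 21883 protein-coding genes. They comprised 17 ligand genes and 24 receptor genes. A peak belonged to a member if it overlapped the gene body, or lay within 50 kb with that gene as the nearest protein-coding gene. This gave 407 of the 182166 consensus peaks, at 40 of the 41 genes, and 386 of them had a mean of at least 10 normalized reads and were tested. No peak was assigned to Tnfrsf4, the OX40 gene. Tnfsfm13, a readthrough of Tnfsf12 and Tnfsf13, shares the 5 peaks of those genes, and each shared peak was counted once in totals.

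ATAC-seq, in which the Tn5 transposase cuts open DNA, was performed on these cells, taken by sorting bone marrow of C57BL/6 mice of 2 genotypes without treatment, in which human GFI1 replaces the mouse Gfi1 gene. GFI1 is a DNA-binding protein that represses genes during blood formation. In GFI1-KI mice (KI/KI) the human gene stands in for the mouse gene. The labels give GFI1-KD mice (KD/KD) 10 to 20% of human GFI1 in place of mouse Gfi1. There were 3 libraries per genotype, called KI1 to KI3 and KD1 to KD3 below. Age and number of animals are not stated in the labels, so p-values measure the spread between libraries, which may be partly technical.

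TNF superfamily ligands are mostly trimeric membrane proteins that can be shed, and they bind receptors with cysteine-rich outer domains. Receptors with a death domain, such as Fas and Tnfrsf1a, can start apoptosis, while others recruit TRAF adaptors and switch on NF-kB and MAP kinases. A few receptors act as decoys that hold ligand without signalling. In the bone marrow the family is known for inflammatory signals to progenitors, for osteoclast formation and for survival of B cells.

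The 3 GFI1-KI libraries held 19408373 to 27741446 reads in peaks, and the 3 GFI1-KD libraries 16022763 to 19857646. KI2 and KD1 held 1 and 0 reads on chromosome Y, and the other 4 libraries 499 to 865. Of 10 progenitor marker genes 9 had peaks, and their summed values overlapped (19680 to 21044 normalized reads in GFI1-KI, 19458 to 20613 in GFI1-KD). No peak lay within 1 kb of an end of Cd3g, Cd8a or Ncr1 (T and NK cells), Gata1 (erythroid) or Marco (macrophage). The same held for Fcgr3, a progenitor marker. Every other marker had such a peak, among them Klf1 and Itga2b (erythroid and megakaryocyte) and Adgre1 and Mertk (macrophage). Summed values of markers of other cell types were lower in every GFI1-KD library for stem cells (7285 to 8318 against 6489 to 6867), for erythroid cells and megakaryocytes (3816 to 4278 against 3006 to 3464) and for T and NK cells (2310.4 to 2408 against 1683 to 2027). Of their tested peaks 13 of 118, 6 of 28 and 6 of 39 fell, and 0 rose. Over all tested peaks 5.48% fell and 4.99% rose. The stem cell falls included 8 at Hlf and 4 at Mecom, while Procr and Hoxb5 had 0 called peaks. At its highest gene-end peak Procr was higher in every GFI1-KD library (199 to 208 against 230 to 271). Such peaks of Hlf, Mecom and Mllt3 were lower in every GFI1-KD library, and that of Hoxb5 overlapped. The falls of erythroid cell and megakaryocyte markers lay at 5 genes, and all 6 of T and NK cells at Tcf7. Progenitor markers had 3 risers and 7 falls of 110 tested peaks, 4 of the falls at Kit, 2 at Csf1r and 1 at Cd34. In every GFI1-KD library the highest gene-end peak was lower at Kit (1388 to 1439 against 1039 to 1182). So it was at Cebpa (1738 to 1785 against 1564 to 1644) and Mpo (1332 to 1398 against 1168 to 1323). Such peaks of the other progenitor markers overlapped. Summed values of markers of B cells (3729 to 3907 against 3587 to 3969) and mature macrophages (3478 to 3673 against 3412 to 3726) overlapped. B cell markers had 4 risers and 3 falls of 57 tested peaks, and macrophage markers 1 and 2 of 40. The part of these cell types in the results below was not tested. In sorted populations, fewer cells of a type and less open chromatin per cell cannot be told apart.

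Sequences are shown for the 4 members whose start lay under a peak that changed, since these are the places where a changed peak sits on the gene's own promoter. Of the 41 genes, 33 had 37 promoter windows in the RefSeq table (GRCm38.p6, the assembly of mm10), and a peak lay on 29 of these windows. Each line gives the 250 bases before the start of the gene, 5′ to 3′ on the gene's strand; for Tnfsf13b and Tnfrsf25, which have several starts, the most upstream start in the table was used. Letters of the motifs searched are in capitals wherever they occur.
Tnfsf13b, chr8:10006217-10006466, plus strand: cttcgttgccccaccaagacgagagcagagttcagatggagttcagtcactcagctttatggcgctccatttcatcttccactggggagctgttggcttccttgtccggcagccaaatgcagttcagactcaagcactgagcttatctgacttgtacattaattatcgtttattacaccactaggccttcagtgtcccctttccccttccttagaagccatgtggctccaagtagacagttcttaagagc
Tnfrsf25, chr4:152115684-152115933, plus strand: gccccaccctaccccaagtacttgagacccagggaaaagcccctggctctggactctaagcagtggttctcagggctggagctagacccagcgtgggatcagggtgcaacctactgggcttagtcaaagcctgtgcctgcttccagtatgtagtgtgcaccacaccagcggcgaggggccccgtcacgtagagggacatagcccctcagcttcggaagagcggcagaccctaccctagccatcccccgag
Tnfrsf21, chr17:43016305-43016554, plus strand: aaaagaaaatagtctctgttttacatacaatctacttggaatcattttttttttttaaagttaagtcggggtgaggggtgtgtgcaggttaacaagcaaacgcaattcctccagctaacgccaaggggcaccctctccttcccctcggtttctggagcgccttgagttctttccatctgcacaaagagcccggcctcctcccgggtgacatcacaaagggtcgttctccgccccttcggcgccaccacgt
Eda2r, chrX:97377210-97377459, minus strand: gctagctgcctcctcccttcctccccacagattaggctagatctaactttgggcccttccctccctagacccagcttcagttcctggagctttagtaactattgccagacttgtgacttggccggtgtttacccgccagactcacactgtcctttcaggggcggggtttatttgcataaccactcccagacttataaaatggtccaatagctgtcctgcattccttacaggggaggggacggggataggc

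Both strands were searched for AAATCA (around the GFI1 core), an NF-kB motif, GAGGAAGT (PU.1) and TGANTCA (AP-1). None of the 4 motifs occurs in these stretches, so all letters are in lower case. The G and C content was 48.8% for Tnfsf13b, 61.6% for Tnfrsf25, 50.4% for Tnfrsf21 and 53.2% for Eda2r, against a median of 52.4% over 32851 windows. Tnfrsf21 held 12 CpG pairs and the others 4 to 8. Over the 37 windows of the family, AAATCA occurred in 1 (Tnfrsf12a), or 2.70%, against 12.4% of all windows of the same length. TGANTCA occurred in 6 (16.2%), at Tnfrsf8, Tnfrsf9, Tnfsf13, Tnfsf14, Fas and the other annotated start of Tnfsf13b, against 6.75% of all. The NF-kB motif was found at Ltb alone among members (0.356% of all windows) and GAGGAAGT at Tnfsf18 alone (2.44% of all). These are letter matches, not bound sites, and most of the printed Tnfrsf25 bases lie outside its changed peak.

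Across the family as a whole, GFI1-KD progenitors had changed peaks at about the rate of the genome. Of the 386 tested peaks 22 rose and 15 fell, a total of 37 or 9.59%, against 10.5% of all 170733 tested peaks (4.99% higher and 5.48% lower). These calls are from limma on log2(value + 1), adjusted by Benjamini-Hochberg over all tested peaks at 0.05. The median log2 fold change was 0.02 in the family and -0.05 over all tested peaks. The genotypes did not overlap at 115 family peaks (29.8%), against 28.8% of all. The family held 0.186% to 0.194% of the reads in peaks of GFI1-KI libraries, against 0.202% to 0.203% of those of GFI1-KD. The balance of directions moved with the scaling of libraries: 34 rose and 12 fell with median-of-ratios scaling, 35 and 12 with equal totals, and 38 and 16 by edgeR. Without KI2, KI3 or KD3 the total was 15, 19 or 20 peaks. Calls over all 170733 tested peaks also dropped, from 17872 to 7245, 6996 and 10807.

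Ligand peaks were called higher more often than lower, and receptor peaks near the shares of the genome. The difference between ligands and receptors was not tested. Among 159 ligand peaks 15 rose (9.43%) and 4 fell (2.52%), with a median log2 fold change of 0.14. Among 227 receptor peaks 7 rose (3.08%) and 11 fell (4.85%), with a median of -0.05, beside 4.99%, 5.48% and -0.05 over all peaks. The order of the receptor counts turned with the scaling: 11 rose and 8 fell with either other scaling, and 11 and 12 by edgeR. Over all peaks 11643 rose and 7868 fell with median-of-ratios scaling, against 8520 and 9352 as deposited. Leaving out 1 library gave 3 to 8 receptor risers, 4 to 11 receptor falls, 6 to 25 ligand risers and 1 to 5 ligand falls, the lowest ligand risers being 6 without KI2 and 7 without KI3 or KD3 and the highest 25 without KI1. When the values of all peaks of a gene were summed in each library and tested over 17731 genes, 5 ligand genes rose (Tnfsf13b, Tnfsf18, Tnfsf9, Tnfsf15 and Tnfsf8) and 0 fell, while 5 receptor genes fell (Tnfrsf11b, Eda2r, Tnfrsf18, Tnfrsf25 and Tnfrsf9) and 0 rose. The background of such calls was 3.84% higher and 13.3% lower over all genes, 17.2% in both directions. The 5 rising genes were of 17 ligand genes, and the 5 falling genes of 23 receptor genes with peaks. The medians of the summed log2 fold changes were 0.03 for ligands, -0.03 for receptors and -0.08 over all genes. Receptor genes also rose in some settings, 1 with either other scaling, 2 by DESeq2 and 4 by edgeR. Without KI3 or KD3 the rising ligand genes numbered 3, and without KI2, KI3 or KD2 the falling receptor genes numbered 2, 3 and 1.

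**Figure D1:**
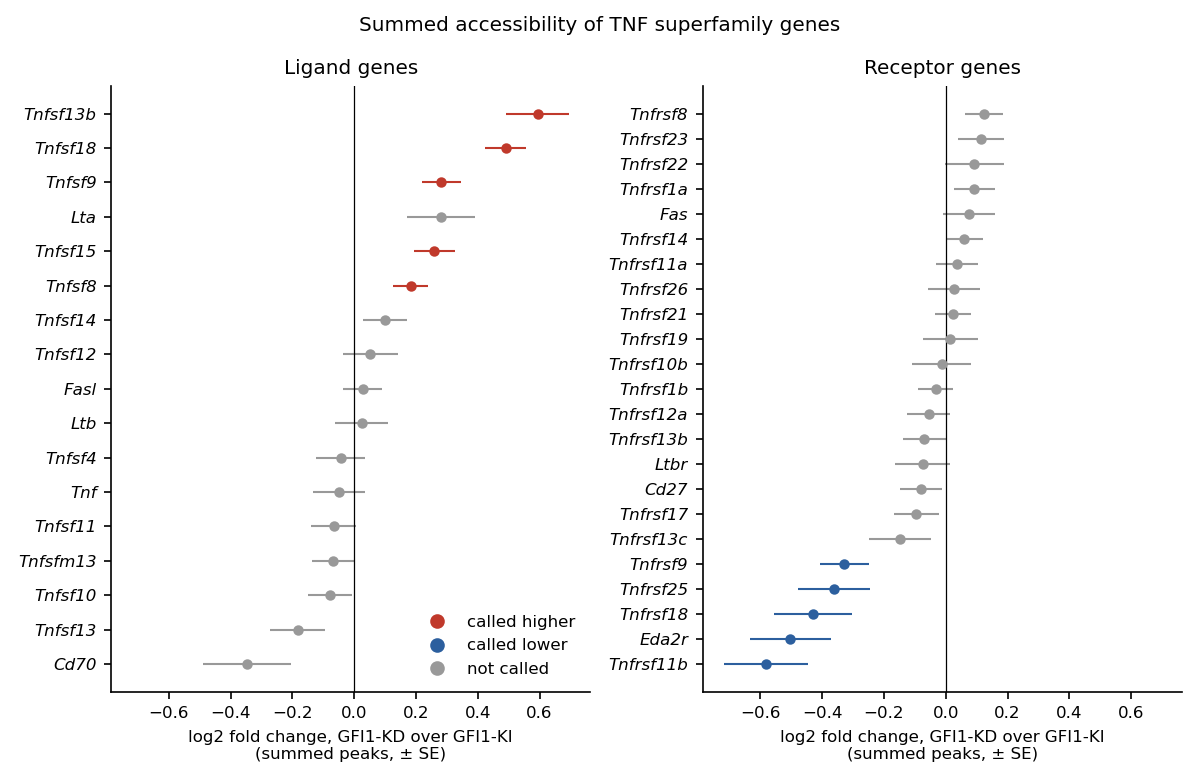
Each point is the log2 fold change (GFI1-KD over GFI1-KI, horizontal axis) of the summed peaks of 1 gene, with its standard error, for 17 ligand genes (left) and 23 receptor genes (right), 3 libraries per genotype. Red points were called higher and blue points lower by limma at an adjusted p under 0.05: all 5 red points are ligands, from 0.18 to 0.59, and all 5 blue points are receptors, from -0.33 to -0.58.

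Tnfsf13b encodes BAFF, a survival factor for B cells that myeloid cells supply. The bases printed above end just before its start. The peak over that start lay on chromosome 8, from 10006244 to 10006973. It held 345, 243 and 253 normalized reads in KI1 to KI3 and 488, 413 and 445 in KD1 to KD3. The lowest GFI1-KD library lay above the highest GFI1-KI library. The log2 fold change was 0.69 ± 0.12 (SE; limma adjusted p = 0.000702), and no alternative ended the call. Beside the peak chosen by rule for each gene, other called peaks are given below, singled out after their values were seen. A neighbouring peak 0.92 kb outside the gene, from 10004958 to 10005309, rose from 51.3 ± 9.45 to 85.6 ± 19.3 (SD, n = 3; log2 fold change 0.72 ± 0.19, adjusted p = 0.0206). That call was lost without KI2 (0.0848), KI3 (0.111), KD1 (0.0817) or KD3 (0.0885). The other 5 tested peaks of Tnfsf13b were not called, and the lowest log2 fold change of the 7 was -0.01. Its summed peaks went from 427 ± 74.8 to 641 ± 58.2 (log2 fold change 0.59 ± 0.10, limma adjusted p = 0.000319), a call made in all the alternatives tried. Few promoters rose in this comparison: 1.57% of all tested peaks on a promoter window did, and 10.9% fell. None of the genes for BAFF receptors was called by limma on summed peaks, while 1 of 10 tested peaks of Tnfrsf17 fell, as given below. The summed log2 fold changes were -0.07 ± 0.07 for Tnfrsf13b (TACI), -0.15 ± 0.10 for Tnfrsf13c (BAFF receptor) and -0.09 ± 0.07 for Tnfrsf17 (BCMA).

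Tnfsf9 encodes the 4-1BB ligand, a costimulatory protein of antigen-presenting cells. It had the family's smallest p: a peak 0.964 kb outside the gene on chromosome 17, from 57108722 to 57109108, held 50.7, 44.7 and 35.5 normalized reads in GFI1-KI and 165, 138 and 154 in GFI1-KD. The lowest GFI1-KD library stood far above the highest GFI1-KI library. The log2 fold change was 1.79 ± 0.17 (limma adjusted p = 1.5e-06), and the call was kept in all alternatives. The peak at the other end of the gene, over 57105133 to 57105803, held 172 ± 19.7 and 183 ± 7.75 (SD, n = 3) and was not called. Of the 11 tested peaks of Tnfsf9, only the riser was called. The summed peaks rose from 1197 ± 75.6 to 1454 ± 45.5 (log2 fold change 0.28 ± 0.06, limma adjusted p = 0.00442), but not when only peaks overlapping the gene body were summed (0.14, adjusted p = 0.4).

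Tnfsf18 encodes the ligand of GITR. All 14 of its tested peaks had a log2 fold change above 0, from 0.08 to 1.03, and 4 of them were called higher. The 2 called peaks not described further were lost without KD3 (0.064 and 0.127) or KI2 (0.053 and 0.122), and the smaller also without KI3 (0.0623) or KD2 (0.052) and by DESeq2 (0.0825). The strongest call lay inside the gene on chromosome 1, from 161500809 to 161501082, with 49.5, 40.3 and 33.2 normalized reads in GFI1-KI and 74.9, 86.4 and 77.6 in GFI1-KD. Those groups were well separated (log2 fold change 0.96 ± 0.19, limma adjusted p = 0.00234). A larger peak 12.1 kb before the gene, from 161482174 to 161482566, rose from 367 ± 12.2 to 483 ± 32.7 (log2 fold change 0.39 ± 0.09, adjusted p = 0.00732, and 0.058 without KI2). The peak at the start of Tnfsf18 was small, at 20.6 ± 5.60 and 21.2 ± 0.95, and was not called. The summed peaks were 813, 771 and 776 in GFI1-KI and 1058, 1102 and 1158 in GFI1-KD (log2 fold change 0.49 ± 0.07, limma adjusted p = 3.55e-05), and not called with gene-end peaks alone (0.867).

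Tnfsf4, the OX40 ligand gene next to Tnfsf18, had 2 peaks at its own end that fell, the one with the smaller p, from 161396408 to 161397026, from 125 ± 14.7 to 81 ± 6.06 (log2 fold change -0.61 ± 0.15, limma adjusted p = 0.011, and 0.101 without KI2). The other, at 61.3 ± 8.68 and 38.2 ± 4.39 (log2 fold change -0.67 ± 0.19, adjusted p = 0.0299), was lost without KI1 (0.0774), KI2 (0.137), KD2 (0.0577) or KD3 (0.111) and by DESeq2 (0.146). The summed peaks of Tnfsf4 differed by -0.04 ± 0.08. Fasl, on the same stretch of chromosome 1, had 15 tested peaks and 0 called by limma. Its leading peak held 450.4 ± 46.9 and 527 ± 25.6 (adjusted p = 0.108) and was called higher with median-of-ratios scaling (0.0385), with equal totals (0.0275), by edgeR (0.0312) and without KI1 (0.0284).

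Tnfsf15, which encodes TL1A, and its neighbour Tnfsf8, the CD30 ligand gene, lie together on chromosome 4. Tnfsf15 had 5 peaks higher and 1 lower of 23. The strongest, 41.1 kb outside the gene from 63683076 to 63683527, held 161, 132 and 129 normalized reads in GFI1-KI and 214, 236 and 246 in GFI1-KD (log2 fold change 0.72 ± 0.13, limma adjusted p = 0.000934). The other 4 risers had log2 fold changes of 0.76 to 0.92, and 2 of them lay inside the gene. Calls at 3 of these were lost without KI3 (0.0746 to 0.192), at 2 each without KI2 (0.0794 and 0.0947) or KD3 (0.075 and 0.105), at 1 without KD1 (0.137), at 1 without KD2 (0.078) and at 1 by DESeq2 (0.0676). The falling peak, 30.6 kb on the other side, held 67.6, 97.3 and 83.1 against 72.8, 43.2 and 42.1, so that KD1 lay within the GFI1-KI range. Its call (limma adjusted p = 0.0401) was lost without KI2 (0.207), KI3 (0.124), KD2 (0.155) or KD3 (0.166) and by DESeq2 (0.136). At the start of Tnfsf15 the values were 128 ± 44.1 and 174 ± 22.3 (adjusted p = 0.082, and 0.00203 without KI1). That peak was also called higher with the other scalings (0.0444 and 0.0419), by edgeR (0.0372) and with the replicate number in the model (0.0285). The summed peaks of Tnfsf15 rose (log2 fold change 0.26 ± 0.07, adjusted p = 0.00953, limma), but not without KI3 (0.0926) or KD3 (0.0535).

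Tnfsf8 had 2 peaks higher and 1 lower of 22. The weaker riser, inside the gene at 318 ± 32.1 and 409 ± 52.9 (log2 fold change 0.36 ± 0.11, adjusted p = 0.035), was lost without KI2 (0.218), KI3 (0.0844), KD1 (0.133) or KD3 (0.106). The lower peak, 24.7 kb outside the gene from 63886209 to 63886455, was the most reduced of any ligand, with 21.4, 29.8 and 25.7 normalized reads in GFI1-KI and 6.42, 7.41 and 4.44 in GFI1-KD (log2 fold change -1.92 ± 0.34, limma adjusted p = 0.00109). The groups stood far apart in this small peak. In the other direction, a peak of 217 ± 32 went to 302 ± 21.3 (log2 fold change 0.48 ± 0.12, limma adjusted p = 0.0109). That call was lost without KI2 (0.0522), KI3 (0.0996) or KD3 (0.069). Summed over peaks, Tnfsf8 rose by 0.18 ± 0.06 (limma adjusted p = 0.0265). That call was lost without KI2 (0.121), KI3 (0.111) or KD3 (0.116) and with only peaks overlapping the gene body (0.12) or at gene ends (0.846).

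**Figure D2:**
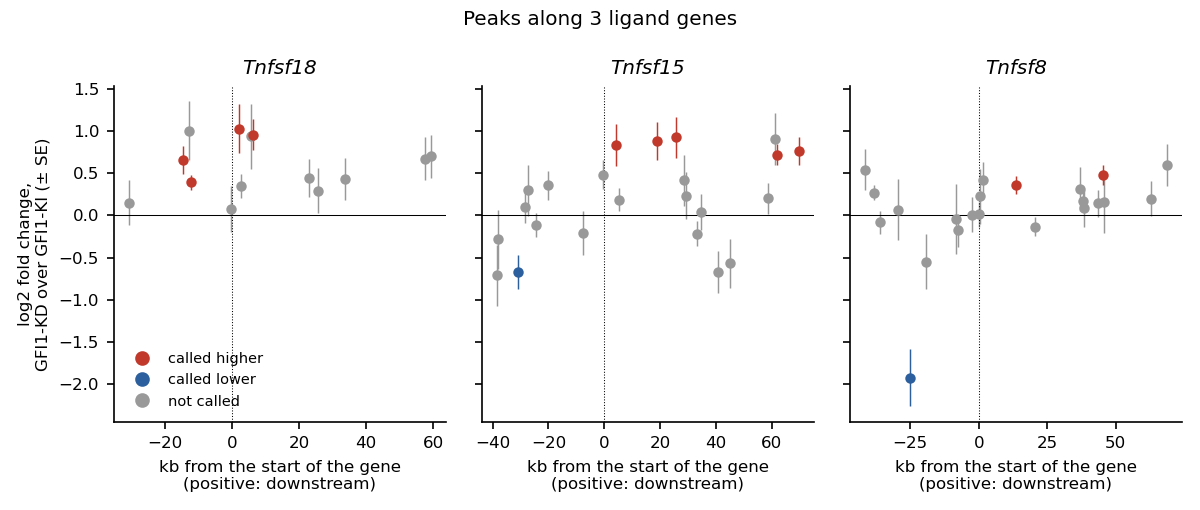
Log2 fold change with standard error (vertical axis) of each tested peak of Tnfsf18, Tnfsf15 and Tnfsf8 by its distance in kb from the gene's start, at the dotted line. All 14 Tnfsf18 peaks lie above 0, the 5 called risers of Tnfsf15 lie downstream of its start, and the most reduced Tnfsf8 peak, at -1.92, lies upstream.

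The remaining ligand genes had few or no called peaks. Tnfsf14, which encodes LIGHT, had 1 riser of 7, at 33.4 ± 7.12 and 52.7 ± 6.27. That call (limma adjusted p = 0.0461) was lost without KI2 (0.233), KI3 (0.124), KD1 (0.131), KD2 (0.0813) or KD3 (0.0829), by DESeq2 (0.11) and with no filter (0.0512). The large peak at its start held 795 ± 58.7 and 800.4 ± 60.2. Tnf itself, the inflammatory cytokine, had 3 peaks and 0 called, with 369, 302 and 282 normalized reads at its start in GFI1-KI and 357, 247 and 268 in GFI1-KD. The genotypes overlapped there (log2 fold change -0.14 ± 0.13). Ltb and Lta, the lymphotoxin genes beside it, had 3 and 2 tested peaks and 0 called. The summed peaks of Lta differed by 0.28 ± 0.11 (limma adjusted p = 0.0734) and were called higher with the other scalings (0.0407 and 0.037), by edgeR (0.0217) and DESeq2 (0.0201), with the replicate number in the model (0.0212), and without KI1 (0.00376).

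Tnfsf11, the osteoclast factor RANKL, had 19 tested peaks and 0 called by limma, its leading peak holding 115 ± 18 and 157 ± 21.2 (adjusted p = 0.0534). That peak was called higher with both other scalings (0.03 and 0.0296), by edgeR (0.0228) and without KI1 (0.0136), among other settings. Tnfsf10, which encodes TRAIL, had 9 tested peaks, Cd70 4, Tnfsf12 3 and Tnfsf13 2, all with 0 called. A peak shared by Tnfsf12, which encodes TWEAK, and the readthrough Tnfsfm13 held 84.8 ± 9.61 and 114 ± 3.19 (adjusted p = 0.0663) and was called higher with both other scalings (0.0382 and 0.0386), by edgeR (0.0445) and among peaks of mean 50 or more (0.0485). The summed peaks of Cd70 differed by -0.35 ± 0.14 (adjusted p = 0.0856), the lowest value among ligands.

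Among receptors, Tnfrsf11b fell the most. It encodes osteoprotegerin, a soluble decoy that binds RANKL. The peak inside its end on chromosome 15, from 54251446 to 54251835, held 28.1, 61.4 and 64.9 normalized reads in GFI1-KI and 16, 8.64 and 12.2 in GFI1-KD. KI1 was the lowest GFI1-KI library and still lay above all 3 GFI1-KD libraries (log2 fold change -1.93 ± 0.30, limma adjusted p = 0.000385). A smaller peak inside the gene went from 18.9 ± 7.89 to 6.07 ± 1.74 (log2 fold change -1.43 ± 0.41, adjusted p = 0.0269). That call was lost without KI2 (0.207), KI3 (0.164), KD1 (0.0597) or KD2 (0.0537). The peak at the other end of the gene, at 70.6 ± 16 and 54 ± 3.26, was not called. The summed peaks changed by -0.58 ± 0.14 (limma adjusted p = 0.00528, and 0.0557 without KD2). The signalling receptor for the same ligand, Tnfrsf11a (RANK), had 15 tested peaks and 0 called, with 185 ± 1.67 and 188 ± 16.5 at its start. Its leading peak, inside the gene, held 99.5 ± 4.59 and 135 ± 12.9 (adjusted p = 0.0536) and was called higher with both other scalings (0.0221 and 0.0223), by edgeR (0.0193), under robust variance estimation (0.0497), among peaks of mean 50 or more (0.0392) and without KD2 (0.0483).

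Tnfrsf25, Tnfrsf9 and Tnfrsf18 encode DR3, 4-1BB and GITR, costimulatory receptors best known on T cells, and all 3 lie on distal chromosome 4. At Tnfrsf25 the start that follows the printed bases lay under a peak from 152115895 to 152116546. Most of the printed bases lie outside this peak. The peak held 152, 159.5 and 162 normalized reads in GFI1-KI and 105, 109 and 101 in GFI1-KD. The spread within each genotype was small beside the difference (log2 fold change -0.59 ± 0.13, limma adjusted p = 0.00643), and the call held in every alternative. Its summed peaks changed by -0.36 ± 0.12 (limma adjusted p = 0.034). That call was lost without KI1 (0.0507), KI2 (0.0871), KI3 (0.148), KD1 (0.0686) or KD2 (0.0873), by edgeR (0.0679) and by DESeq2 (0.17).

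Tnfrsf9 had 1 lower peak of 12, inside the gene from 150924156 to 150924749, with 235, 233 and 264 normalized reads in GFI1-KI and 190.5, 122 and 133 in GFI1-KD. All GFI1-KD libraries were below all GFI1-KI libraries (log2 fold change -0.74 ± 0.14, limma adjusted p = 0.00219). Its summed peaks changed by -0.33 ± 0.08 (adjusted p = 0.00636), a call made in every alternative that gave it a value. Tnfrsf18 had 2 peaks. The one at its start, with 163 ± 5.96 and 127 ± 2.79, did not overlap between genotypes but missed the threshold (adjusted p = 0.0719). The other, 4.18 kb outside, held 16.9, 20.2 and 19.6 against 13.9, 2.47 and 7.76, the lowest being 2 reads in KD2. Its call (adjusted p = 0.0462) was lost without KI1 (0.0617), KI2 (0.161), KI3 (0.161), KD2 (0.185) or KD3 (0.0789). The summed value went from 182 ± 7.46 to 135 ± 6.5 (log2 fold change -0.43 ± 0.13, limma adjusted p = 0.0206), and the call was lost without KI2 (0.0844), KI3 (0.0986) or KD2 (0.0592) and by DESeq2 (0.107). The T and NK cell markers given above were lower in the same libraries, by a median log2 fold change of -0.30 over 39 tested peaks, all 6 called peaks being at Tcf7. The 3 genes of the list with a gene-end peak overlapped between genotypes there: Cd3e held 25.9 to 39.3 normalized reads against 12.8 to 31, Cd4 48.3 to 74.5 against 49.9 to 61.7, and Tcf7 200.4 to 221 against 185 to 214.

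Set beside each other by textbook partnership, a choice made with these values known, 3 pairs of ligand and receptor had both genes called, and in each the ligand rose and the receptor fell. That number was 1 without KI2, KI3 or KD2, by DESeq2 and with gene-end peaks alone, and 2 by edgeR, with gene-body peaks alone and without KI1, KD1 or KD3. They were Tnfsf18 with Tnfrsf18 (0.49 ± 0.07 and -0.43 ± 0.13), Tnfsf9 with Tnfrsf9 (0.28 ± 0.06 and -0.33 ± 0.08) and Tnfsf15 with Tnfrsf25 (0.26 ± 0.07 and -0.36 ± 0.12). Directions within these pairs were fixed beforehand, since all 5 ligand genes called by summed peaks rose and all 5 such receptor genes fell. Nothing about partners is read from them. Tnfsf8 and its receptor gene Tnfrsf8 both had values above 0 (0.18 ± 0.06 and 0.12 ± 0.06). Tnfrsf8 was called only with the other scalings (0.0249 and 0.0125), by edgeR (0.00442) and by DESeq2 (0.000461). For Fasl with Fas (0.03 ± 0.06 and 0.08 ± 0.08), Tnf with Tnfrsf1a (-0.05 ± 0.08 and 0.09 ± 0.07) and Cd70 with Cd27 (-0.35 ± 0.14 and -0.08 ± 0.07) neither gene was called by limma on summed peaks. By edgeR Tnfrsf1a was called higher (0.0487). The summed peaks of Cd27 were called lower when only gene-end peaks were summed (log2 fold change -0.39, adjusted p = 0.0233).

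**Figure D3:**
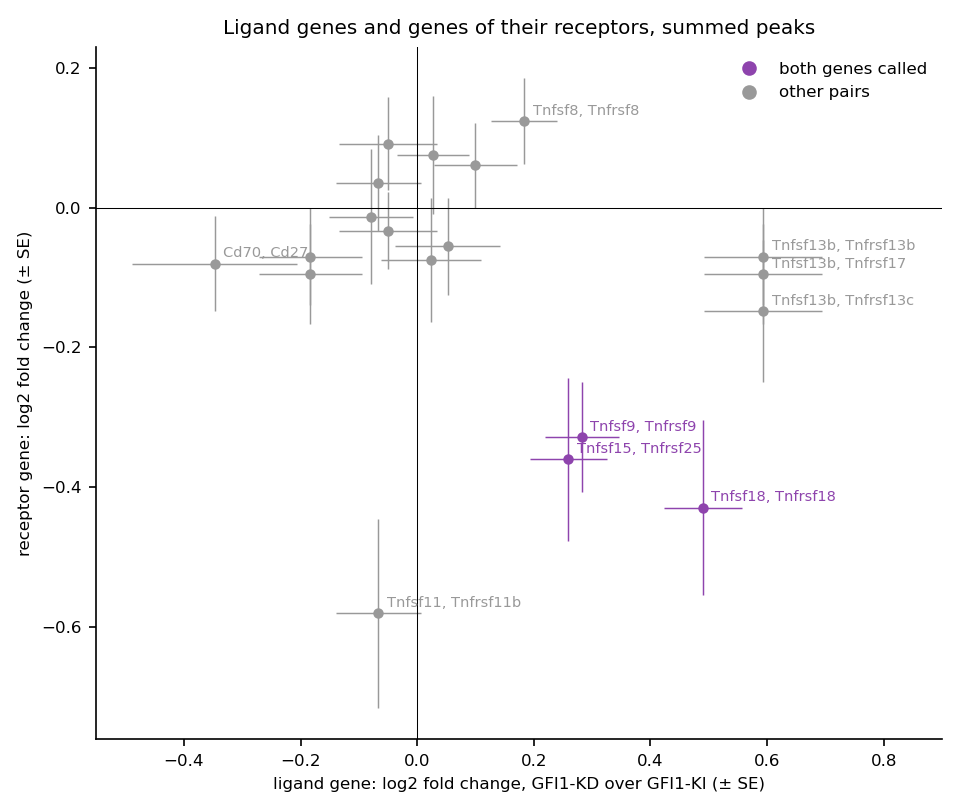
Log2 fold change of the summed peaks of a ligand gene (horizontal axis) and of a gene for its receptor (vertical axis), with standard errors, for 19 known pairs. A gene with several partners appears several times, and pairs near 0 carry no label. The 3 purple points, where both genes were called (1 pair without KI2, KI3 or KD2), lie at the lower right, with ligand values of 0.26 to 0.49 and receptor values of -0.33 to -0.43. Any pair with both genes called had to lie there, since every called ligand gene rose and every called receptor gene fell.

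Eda2r, on chromosome X, encodes the receptor for ectodysplasin A2, and both of its peaks fell. The peak on its start lay from 97377005 to 97377476. It held 188, 206 and 149 normalized reads in GFI1-KI and 139, 136 and 124 in GFI1-KD (log2 fold change -0.43 ± 0.14, limma adjusted p = 0.048). Its neighbour inside the gene went from 34.9 ± 6.25 to 17.9 ± 5.1 (log2 fold change -0.94 ± 0.26, adjusted p = 0.0227). KI2, a library nearly without chromosome Y reads, was the highest at both peaks, and KD1, which held none, was the highest GFI1-KD library. Without KI2 the adjusted p was 0.272 for the first and 0.143 for the other peak, and the summed value (-0.50 ± 0.13, adjusted p = 0.0114) had 0.092. The start peak was also lost without KI1 (0.087), KD1 (0.0512), KD2 (0.088) or KD3 (0.153), with both other scalings (0.0612 and 0.0599) and by DESeq2 (0.133). Its neighbour was lost without KD2 (0.0883) or KD3 (0.066) and by DESeq2 (0.125), and the summed value without KD2 (0.0579) or KD3 (0.0519).

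Among receptors with a death domain beside Tnfrsf25, Tnfrsf21 (DR6) had 32 peaks, the most in the family, and its highest peak averaged 1349 normalized reads. Of 31 tested, 2 rose and 2 fell. The weaker fall (adjusted p = 0.0499) was lost in 13 of the alternatives, among them both other scalings (0.0581 with each), no filter (0.0523), edgeR (0.0538), DESeq2 (0.195), the replicate number in the model (0.0587) and leaving out KI1 (0.0557), KI2 (0.19), KI3 (0.145), KD2 (0.168) or KD3 (0.0824). The weaker riser was lost without KI3 (0.224), KD1 (0.125) or KD3 (0.0703). The start peak of Tnfrsf21 held 795, 800.2 and 773 normalized reads in GFI1-KI and 644, 632 and 689 in GFI1-KD. This was a small change with little spread (log2 fold change -0.27 ± 0.07, limma adjusted p = 0.0191). That call was lost without KI2 (0.111) or KI3 (0.0781) and by DESeq2 (0.0678). Inside the gene, a peak from 43050614 to 43051103 held 86.7, 57 and 52.1 against 149, 109 and 119 (log2 fold change 0.95 ± 0.18, adjusted p = 0.00216). The summed value of Tnfrsf21 differed by 0.02 ± 0.06, and by -0.25 (adjusted p = 0.00524) when only peaks within 1 kb of its ends were summed. Fas, the classical death receptor, had 10 tested peaks and 0 called. At its start it held 218, 194 and 188 against 246, 179 and 174, and the genotypes overlapped. Tnfrsf1a, the main TNF receptor, had 11 tested peaks and Tnfrsf10b, the TRAIL receptor, 9, with 0 called at either. The start peak of Tnfrsf1a held 244 ± 23.5 and 250.3 ± 15.4.

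**Figure D4:**
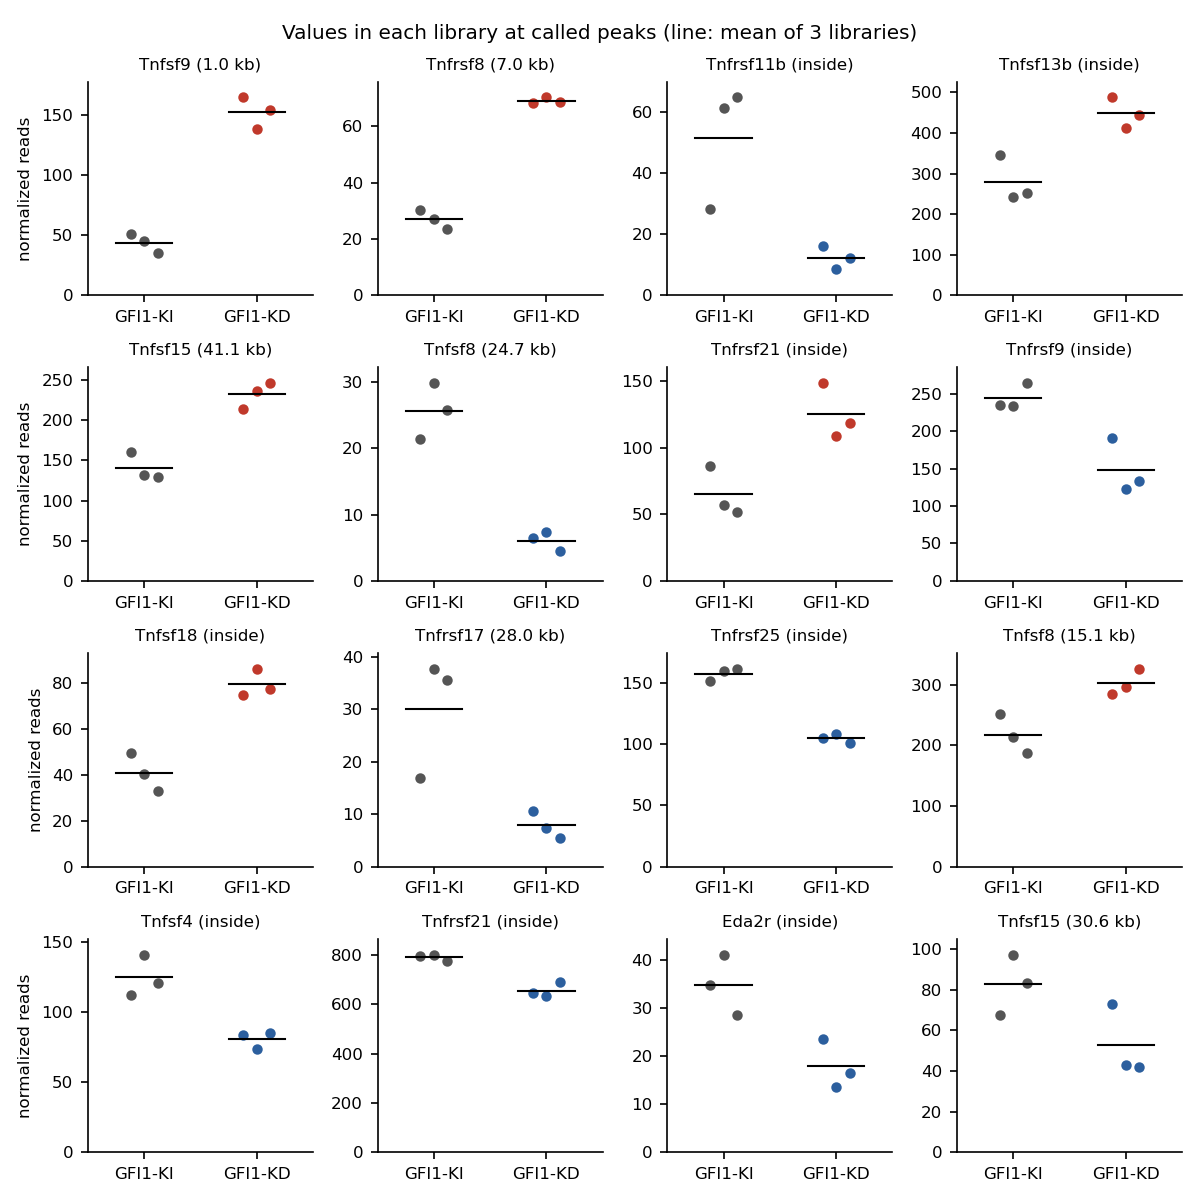
Normalized reads in each of the 6 libraries (points, KI1 to KI3 and KD1 to KD3 from left to right) at the 16 called peaks of smallest adjusted p among those chosen by rule, with the mean of each genotype as a line. Each panel gives the gene and whether the peak lies inside it or how far outside. Genotypes do not overlap in 15 panels, and in the last, Tnfsf15 at 30.6 kb, KD1 lies within the GFI1-KI range. Choosing peaks by small adjusted p favours such separation. Over all tested peaks the genotypes did not overlap at 28.8%.

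Of the other receptors without a death domain, some had called peaks and some had none. Tnfrsf8, which encodes CD30, had 3 risers of 26, the strongest 7.03 kb outside the gene on chromosome 4 from 145322197 to 145322533. It held 30.4, 27.2 and 23.4 normalized reads in GFI1-KI and 68.5, 70.3 and 68.7 in GFI1-KD (log2 fold change 1.33 ± 0.19, limma adjusted p = 0.000189), and the groups were far apart. A larger riser between Tnfrsf8 and Tnfrsf1b, from 145257993 to 145258434, went from 164 ± 21 to 284 ± 40.1 (log2 fold change 0.79 ± 0.13, adjusted p = 0.000479). The weakest of the 3 (adjusted p = 0.043) was lost without KI1 (0.115), KI2 (0.073), KI3 (0.0942), KD2 (0.161) or KD3 (0.137) and by DESeq2 (0.117). The gene-end peak of Tnfrsf8, at 954 ± 54.2 and 989 ± 117, was not called. Tnfrsf1b, the TNF receptor of immune cells, had 14 tested peaks and 0 called, with 530 ± 17.1 and 498 ± 18.4 at its start. A peak 28 kb from Tnfrsf17, from 11284959 to 11285219 on chromosome 16, held 16.9, 37.7 and 35.5 in GFI1-KI and 10.7, 7.41 and 5.54 in GFI1-KD (log2 fold change -1.76 ± 0.35, adjusted p = 0.0027).

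Cd27 had 1 riser of 10, 15.1 kb away, at 89.3 ± 12.6 and 123 ± 4.32. That call (adjusted p = 0.0492) was lost without KI2 (0.185), KI3 (0.217), KD1 (0.0614), KD2 (0.123) or KD3 (0.125), by DESeq2 (0.0637) and with the replicate number in the model (0.0546). The decoy receptor genes Tnfrsf22 and Tnfrsf23 and their neighbour Tnfrsf26 form a cluster on chromosome 7. Tnfrsf23 had 1 riser, at 253 ± 30.5 and 327 ± 42.7, whose genotypes overlapped. Its call (adjusted p = 0.0464) was lost without KI2 (0.215), KI3 (0.184), KD1 (0.163) or KD3 (0.127). Tnfrsf26 had 1 peak that fell, at 135 ± 5.62 and 98.3 ± 12.7. That call (adjusted p = 0.0406) was lost without KI1 (0.0536), KI2 (0.17), KI3 (0.107), KD2 (0.0989) or KD3 (0.151), by DESeq2 (0.151) and with the other scalings (0.0539 and 0.0502).

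Of the 40 genes with peaks, 22 had no called peak by limma. Of their 175 tested peaks 28 (16%) had an unadjusted p under 0.05 and edgeR called 7 (4%), against 25.5% and 12.6% of all tested peaks, while DESeq2 called 0. These genes were picked for having no call, so nothing is read from the lower shares. Several of their leading peaks passed the threshold in other settings. A peak of Tnfrsf22 held 87 ± 16.2 and 142 ± 64.5, with KD1 at 214. It was called higher by edgeR (0.0151), with the other scalings (0.0444 and 0.0394), with the replicate number in the model (0.0154), and without KI1 (0.0378) or KD2 (0.0173). A peak of Tnfrsf14, which encodes HVEM, held 135 ± 37.4 and 180.1 ± 12.1 and was called higher without KI1 (0.00283), with the other scalings (0.0376 and 0.0349), by edgeR (0.0325) and with the replicate number in the model (0.0435). Peaks of Tnfrsf13b (0.0151) and Tnfrsf13c (0.0349) were called lower without KI1, the former also without KD1 (0.0467). Ltbr, the lymphotoxin beta receptor gene, Tnfrsf12a, the TWEAK receptor gene, and Tnfrsf19 had 3, 3 and 11 tested peaks and 0 called. Ltbr held 508 ± 65.9 and 484 ± 18.4 at its start, and Tnfrsf12a 439 ± 9.77 and 403 ± 20.6 at its highest gene-end peak.

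By position, calls at family peaks were as follows. Of 79 tested gene-end peaks (within 1 kb of either end of the gene) 4 rose and 7 fell, or 13.9%, against 8.88% of all gene-end peaks (1.71% higher and 7.17% lower). Of the 29 tested peaks on a member's own promoter window 1 rose and 3 fell, against 1.57% and 10.9% of all peaks on promoter windows. Among the 307 other peaks 18 rose and 8 fell, against 5.6% and 5.16% of all peaks that are not at gene ends. No family peak lay in the 4 windows of 5 Mb that were dense in changes of at least 4-fold.

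The signalling genes below the receptors were given by a list of 42 adaptors, kinases, caspases and ubiquitin enzymes. Their 484 tested peaks had a median level of 71.0 normalized reads, against 44.7 over all tested peaks. Of all tested peaks with a mean of 50 to 250, 13.2% were called. Of the 484 list peaks 38 rose and 30 fell, or 14%, against the background of 10.5%, with a median log2 fold change of -0.04. Among the risers were peaks inside Map3k14, the kinase of the alternative NF-kB pathway, from 8.16 ± 3.04 to 37 ± 1.52 (log2 fold change 2.11 ± 0.30, adjusted p = 0.000173), inside Casp8, the apical caspase of death receptors, from 313 ± 22.9 to 485 ± 3.7 (0.63 ± 0.09), and inside the adaptor gene Traf5, from 7.7 ± 2.81 to 33.4 ± 4.93 (2.03 ± 0.32). Among the peaks that fell were a peak near Map3k8, a kinase gene of TNF signalling, from 242 ± 26.9 to 159.5 ± 21.1 (-0.60 ± 0.13), and a peak inside Map3k5, which encodes the stress kinase ASK1, from 32.3 ± 10.6 to 10.8 ± 3.51 (-1.48 ± 0.32, and not called without KI2, adjusted p = 0.0544). Map3k8 had 4 risers and 1 fall of 20, and Map3k5 4 of each of 43. Of the 42 genes 5 had only risers, 8 only falls and 11 both. Cflar, the caspase-8 inhibitor gene, had 3 risers of 17 and none lower, and Bid 2 risers of 10 and none lower. Cyld, a deubiquitinase gene, had 2 lower of 6 and none higher. Tnfaip8 had 5 higher and 3 lower of 43, Ikbkb 3 and 1 of 14, and Traf3 3 and 2 of 30. Tnfaip3, the feedback inhibitor A20, had 4 higher and 2 lower of 21. Without KI2, KI3, KD2 or KD3 the list had 15, 13, 41 or 31 called peaks, and 36 by DESeq2. Called peaks over all 170733 tested numbered 7245, 6996, 12429 and 10807 without those libraries, and 10819 by DESeq2. The list's share was below that of all peaks without KI2 or KI3, and about level with it without KD3. It was above that of all peaks without KD2 and by DESeq2. Superfamily genes whose symbols fall outside the naming rule (Cd40, Cd40lg, Ngfr, Edar, Eda and Relt, with the adaptor Edaradd) had 1 riser and 4 falls of 75.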

How the data were processed

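The deposited table holds, for each consensus peak and for each of 3 libraries per genotype, a coverage signal that is a normalized number of reads. The columns named WT were taken as GFI1-KI from the series title and replicate numbers. Per the submitters' processing notes, the tools were MACS2, BWA, Trim Galore, Picard, HOMER, SAMtools, ChIPseeker and DiffBind, and the build mm10; how peaks were merged, libraries scaled and reads shifted is not given in the sources used here. Dividing each library by its own step gave whole reads for 100% of values (tolerance 0.01 reads). A floor of 3 reads was 2.27 to 3.70 normalized reads.

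Chromosome codes were read in alphabetical order. Of the 165461 peaks whose code differs between the orders, this put 7.67% on RefSeq promoter windows, against 0.503% in numeric order. Coordinates are as the file gives them. Peaks with a mean of at least 10 were tested on log2(value + 1) in limma 3.58.1 under R 4.3.3, with trended variance and without blocking, adjusted by Benjamini-Hochberg over 170733 peaks at 0.05; fold changes understate changes of low values. Values over the peaks of each gene were summed and tested likewise over 17731 genes. Alternatives were edgeR 4.0.16 and DESeq2 1.42.0 on recovered reads, other scalings, filters, pseudocounts and assignments, robust variance, a replicate block, and leaving out each library. The fit was tested on simulated data.

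Named peaks were, per gene, the called peak of smallest p in each direction, the highest gene-end peak, and otherwise the peak of smallest p; this gave 67 peaks. Signalling peaks were the 3 of smallest p each way, of which 1 is not reported here. Members and lists were chosen with earlier results of these data known, and the summed ligand and receptor counts and the pairs after these values were seen. Other called family peaks, added after their values were seen, went through the same alternatives.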

Additional observations from a re-analysis of the deposited data

How the results depend on the processing

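Depth limits precision: for family peaks, log2 fold changes had a median standard error of 0.34 at a mean of 10 to 20 normalized reads and 0.09 at 250 or more, where 5 of 76 and 6 of 40 were called. Over all tested peaks in these ranges 4.88% and 16.9% were called. Leaving out 1 library gave 6996 to 22129 called peaks over the genome (17872 with all), 15 to 48 in the family (37), 10 to 33 higher (22), 5 to 15 lower (15), 6 to 10 family genes by summed peaks (10), 13 to 87 signalling peaks (68), 6 to 25 ligand peaks higher (15), 4 to 11 receptor peaks lower (11), 3 to 6 ligand genes higher (5), 1 to 4 receptor genes lower (5), 3 to 8 receptor peaks higher (7), 1 to 5 ligand peaks lower (4) and 1 to 2 pairs with ligand higher and receptor lower (3). A threshold of 0.01 gave 6896, 14, 9, 5, 6, 19, 6 and 4 in the order of the first 8 counts, with 2 receptor genes lower, 3 receptor risers, 1 ligand fall and 1 pair. DESeq2 gave 10819 peaks over the genome, 23 in the family, 5 lower, 36 signalling peaks, 4 receptor peaks lower, 1 ligand fall, 1 pair, and 3 receptor genes lower and 2 higher. Family risers numbered 34, 35 and 38 with median-of-ratios scaling, equal totals and edgeR, of which 23, 24 and 27 were ligand peaks and 11 each receptor peaks, and 1, 1 and 4 receptor genes were then higher. Peaks of mean 50 or more held 8 family falls, 6 at receptors and 2 at ligands. Counting only peaks overlapping gene bodies gave 17 family calls (8 higher, 9 lower), 6 ligand risers, 7 receptor falls, 3 ligand genes higher, 44 signalling peaks, 2 receptor risers and 2 ligand falls; only peaks within 1 kb of a gene end gave 11 (4 and 7), 3, 5, 3, 7, 1 and 2, and 1 pair. With gene-end peaks alone the summed value of Tnfrsf21 turned to -0.25. The replicate block gave 26 family risers and 15 falls, 11 family genes by summed peaks and 70 signalling peaks; among named peaks and genes it ended the call at the Cd27 peak, and outside them at 1 Tnfrsf21 peak (0.0587), and added calls at single peaks of Tnfsf15, Tnfrsf14 and Tnfrsf22 and at the summed peaks of Lta. The libraries share only a number: deviations of same-numbered libraries correlated at -0.02, -0.04 and 0.06, and not every library correlated best with its own number. The causes were not tested.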
